A study of Mus musculus with 9 samples.

Results

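Vomeronasal receptor genes were described here in the DNA methylation of mouse splenic B cells. They are the autosomal genes of the GRCm38 mouse genome whose symbol starts with Vmn1r or Vmn2r, each taken with 1 kb on either side. A gene was measured where this interval held at least 3 CpGs (a cytosine followed by a guanine) and at least 30 reads over CpGs in each of 3 B cell libraries. The choice used names, positions and depth, and no methylation value. Of 623 autosomal genes 435 passed, among 44534 autosomal genes of all kinds that passed the same limits, and 22 more vomeronasal receptor genes on X, Y or unplaced sequence were not considered. The level of a gene is the percent of all reads over its CpGs that called the cytosine methylated.

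The 3 B cell libraries differed in Kmt2d, which encodes a histone methyltransferase of histone H3 lysine 4. They were wild type (WT), heterozygous (HET) and homozygous (HOM) for the point mutation Ile5482Asn at position 98835228 of chromosome 15. B cells were taken from spleen by removing the other cells with magnetic beads, and no treatment is named for any group. The column names of HET and HOM also carry the word ENU, the name of a chemical mutagen, and the WT name does not, so genotype and any other difference between the ENU-labelled animals and the WT animals cannot be told apart. The sources used here give no age, sex or strain of the animals. The labels list 9 samples, 6 of B cells (2 per genotype) and 3 of blood depleted of B cells. The table analysed here has 1 pair of columns per genotype, each called a library here, and whether each stands for 1 sample or for both pooled is not given. The differences therefore have no replicate check, and the blood samples were not analysed here.

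Vomeronasal receptors are G protein-coupled receptors through which the vomeronasal organ of the nose detects pheromones and other chemical cues. The V1R receptors (Vmn1r genes) have a short outer end, mostly a single coding exon, and bind small molecules such as steroids. The V2R receptors (Vmn2r genes) have a large outer domain, several coding exons, and bind peptides and proteins. Both families lie in tandem clusters with many pseudogenes, and they are transcribed in vomeronasal sensory neurons, so a B cell library shows them outside their tissue of use.

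Each library was sequenced by whole-genome bisulfite sequencing, in which unmethylated cytosines are converted and methylated ones are not. The libraries held between 200824258 and 282430649 reads over 21875444 CpGs, which is 9.18, 12.9 and 9.85 reads per CpG for WT, HET and HOM. The level over all CpGs was 76.0%, 75.6% and 72.3% in WT, HET and HOM. The CpG-richer ends of 8 B cell marker genes had a median level of 45.4%, 31.0% and 36.8% in WT, HET and HOM, with single genes between 9.42% and 92.2% in WT. In the same order the medians were 52.8%, 61.4% and 54.1% for 8 T cell genes and 49.3%, 44.6% and 42.3% for 5 natural killer cell genes. They were 74.1%, 75.5% and 71.0% for 7 myeloid genes and 40.5%, 43.9% and 35.4% for 5 erythroid and platelet genes. The ranges overlapped between cell types, so these ends did not by themselves identify the cells, and the part of other cells in the results below was not tested.

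The sequence in front of the receptor genes differed from that of most mouse genes. RefSeq start windows (GRCm38.p6, 250 bases before to 50 bases after the annotated start, 300 bases in all) were on hand for 322 autosomal vomeronasal receptor genes, 206 Vmn1r and 116 Vmn2r, and gave 323 windows, since Vmn2r29 has 2 annotated starts. The windows were taken without the limits on CpGs and reads, so they include genes that failed those limits. In 283 windows (87.6%) the annotated start was the ATG of a start codon, against 5.47% of 31396 windows of all genes, so most of these windows sit at the start of the reading frame and not at a mapped promoter. The median window held 1 CpG against 7 in all genes, and 78 windows (24.1%) held none against 5.25% of all windows. The median GC content was 36.7% against 53%. The windows printed next were picked after their values were seen. Vmn2r29 is the CpG-rich exception, the next 4 show windows with several measured CpGs in both families, and Vmn2r116 shows a window with no CpG at all. Capitals mark each CpG, and all windows run 5′ to 3′ on the strand of the gene.
Vmn2r29, chr7:7278240-7278539, minus strand: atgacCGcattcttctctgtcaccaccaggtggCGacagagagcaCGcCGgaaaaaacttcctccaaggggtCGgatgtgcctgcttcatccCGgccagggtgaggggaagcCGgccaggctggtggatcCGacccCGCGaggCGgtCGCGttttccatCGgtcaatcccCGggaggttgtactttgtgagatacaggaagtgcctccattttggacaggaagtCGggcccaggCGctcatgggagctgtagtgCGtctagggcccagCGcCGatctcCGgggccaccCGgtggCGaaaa
Vmn2r1, chr3:64081392-64081691, plus strand: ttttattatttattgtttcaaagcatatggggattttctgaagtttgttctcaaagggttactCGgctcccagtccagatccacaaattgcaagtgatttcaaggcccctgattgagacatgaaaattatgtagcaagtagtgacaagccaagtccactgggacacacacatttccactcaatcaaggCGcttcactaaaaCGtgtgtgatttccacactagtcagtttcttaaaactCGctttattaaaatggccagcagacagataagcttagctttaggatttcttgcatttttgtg
Vmn2r53, chr7:12606495-12606794, minus strand: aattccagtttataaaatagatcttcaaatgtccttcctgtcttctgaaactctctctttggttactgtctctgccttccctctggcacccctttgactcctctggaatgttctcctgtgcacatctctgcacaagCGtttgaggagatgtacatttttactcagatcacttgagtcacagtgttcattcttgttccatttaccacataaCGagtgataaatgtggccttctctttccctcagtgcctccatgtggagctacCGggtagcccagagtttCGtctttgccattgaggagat
Vmn1r54, chr6:90268856-90269155, plus strand: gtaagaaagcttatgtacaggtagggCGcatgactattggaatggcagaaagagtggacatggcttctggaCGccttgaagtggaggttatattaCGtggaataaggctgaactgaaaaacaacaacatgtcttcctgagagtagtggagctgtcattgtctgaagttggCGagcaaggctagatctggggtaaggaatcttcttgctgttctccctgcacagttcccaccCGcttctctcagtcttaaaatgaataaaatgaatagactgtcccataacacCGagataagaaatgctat
Vmn1r212, chr13:22884112-22884411, minus strand: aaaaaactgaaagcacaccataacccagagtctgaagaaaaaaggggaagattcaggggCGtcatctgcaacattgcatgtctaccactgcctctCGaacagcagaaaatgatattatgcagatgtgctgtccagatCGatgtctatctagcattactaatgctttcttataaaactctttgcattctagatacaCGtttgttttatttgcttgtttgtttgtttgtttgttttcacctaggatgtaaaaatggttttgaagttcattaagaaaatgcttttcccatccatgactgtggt
Vmn2r116, chr17:23384553-23384852, plus strand: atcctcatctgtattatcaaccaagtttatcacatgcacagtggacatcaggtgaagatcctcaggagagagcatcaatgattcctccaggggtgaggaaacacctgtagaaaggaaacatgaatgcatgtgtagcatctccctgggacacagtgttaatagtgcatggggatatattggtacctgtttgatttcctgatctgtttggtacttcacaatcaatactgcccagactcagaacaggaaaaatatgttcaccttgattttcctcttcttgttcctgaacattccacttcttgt

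The window of Vmn2r29, at the upstream of its 2 starts, held 23 CpGs, more than any other vomeronasal receptor window. Its level was 3.31% in WT (121 reads), 1.32% in HET (379 reads) and 8.67% in HOM (150 reads). The Vmn2r1 window, with 4 CpGs, stood at 85.7%, 75.5% and 71.7% in WT, HET and HOM, with 46 to 49 reads. Of these windows only that of Vmn2r29 was nearly free of methylation. The Vmn2r53 window (4 CpGs) stood at 83.0%, 83.9% and 90% in WT, HET and HOM, with 40 to 56 reads. The Vmn1r54 window (6 CpGs) stood at 64.3% in WT with only 14 reads, 88.9% in HET and 90.2% in HOM. The Vmn1r212 window (4 CpGs) stood at 82.9%, 67.4% and 77.3%, with 22 to 43 reads. With so few reads per window these 4 genes show mostly methylated starts, and their order across libraries was not tested.

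Pooled over all Vmn1r start windows, the level was 77.9%, 76.2% and 73.0% in WT, HET and HOM. Pooled over all Vmn2r windows it was 65.8%, 54.3% and 65.9%, and without the Vmn2r29 window 76.9%, 78.5% and 78.2%, so that 1 CpG-rich window with unequal reads set the low and uneven value. Start windows of all genes were at 14.4%, 14.7% and 13.4%. Start windows of olfactory receptor genes (Olfr), another sensory receptor family in tandem clusters, were at 79.2%, 77.7% and 75.3%. Among 49 vomeronasal receptor windows with at least 10 reads in every library, 39 were above 60% in WT, 41 in HET and 36 in HOM, while 35.1% of all gene windows were above 60% in WT and 56.0% were below 20%.

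The motifs CG, TATAAA and CANNTG were searched on both strands of the windows. A CG was found in 75.9% of the vomeronasal receptor windows and in 94.8% of all windows. The letters TATAAA, the core of a TATA box, were in 35.3% of the vomeronasal receptor windows, 42.2% for Vmn1r and 23.1% for Vmn2r, against 13.6% of all windows and 41.1% of Olfr windows. The letters CANNTG, an E box, were in 87.6%, 82.0% for Vmn1r and 97.4% for Vmn2r, against 72.2% of all windows. These are matches of letters in AT-rich sequence and were not tested as binding sites.

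Around the starts the vomeronasal receptor genes as a group showed no dip in methylation, each gene being taken at 1 start and Vmn2r29 at the downstream of its 2, so its unmethylated upstream window is not centred in this profile. In bins of 500 bp reaching 5 kb to each side, the WT level of Vmn1r genes stayed between 76.6% and 82.8% and that of Vmn2r genes between 74.7% and 84.5%. Over 16457 protein-coding genes the level fell to 9.12% in the first 500 bp after the start. The profiles are not centred alike, since most vomeronasal receptor starts were the ATG of a start codon and few starts of all genes were. In that bin CpG density was 54.5 per kb for protein-coding genes, 3.75 for Vmn1r and 4.02 for Vmn2r genes.

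**Figure D1:**
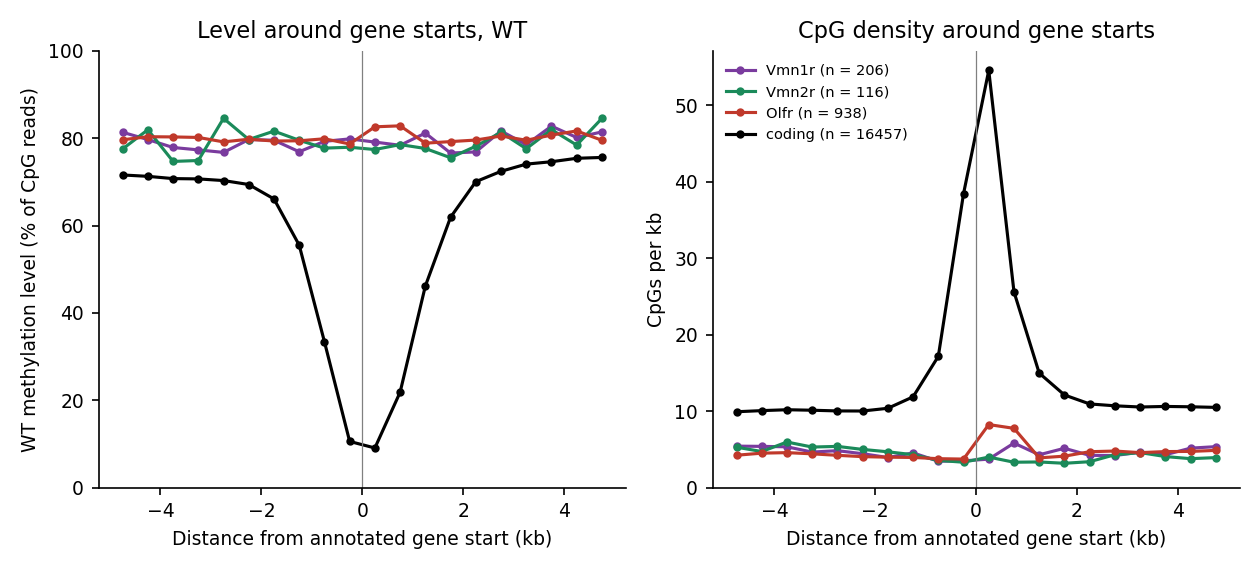
The left panel plots the WT methylation level (percent of CpG reads) and the right panel the CpG density (CpGs per kb) against distance from the annotated gene start (kb, negative values upstream), in bins of 500 bp. Each gene is taken at 1 start, Vmn2r29 at its downstream one, and no limit on CpGs or reads was applied. Lines stand for 206 Vmn1r, 116 Vmn2r, 938 Olfr and 16457 protein-coding genes ("coding"), and the receptor families stay near 80% where protein-coding genes fall to 9.12%. Most annotated starts of the receptor families are start codons, which few starts of all genes are.

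Across whole gene intervals the receptor genes were highly methylated. The median level of the 435 genes was 80.4%, 79.5% and 76.7% in WT, HET and HOM, compared with 77.8%, 77.2% and 74.1% over all genes and 71.7%, 71.3% and 68.2% over protein-coding genes. Olfr genes had higher medians, of 82.2%, 81.4% and 78.5%. Other genes within the same quartiles of CpG density, 3898 in number, had medians of 81.6%, 81.0% and 77.8%, so genes equally poor in CpGs were as highly methylated. In WT 89.2% of the receptor genes lay between 60% and 90%, against 69.9% of all genes, and none lay below 20%, against 3.99% of all genes.

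The families and gene classes were close to each other. Vmn1r genes had medians of 81.1%, 80.3% and 76.7% in WT, HET and HOM, and Vmn2r genes 79.8%, 78.8% and 76.7%. The 140 Vmn1r receptor genes had medians of 80.4%, 80.3% and 76.9%, and the 100 Vmn1r pseudogenes 81.5%, 80.3% and 76.5%. The 106 Vmn2r receptor genes had medians of 79.7%, 78.8% and 76.5%, and the 89 Vmn2r pseudogenes 80.3%, 78.8% and 77.5%. In each of the 4 classes the HOM median was the lowest of the 3. The SD of the WT level over the 435 genes was 9.06 points, while counting reads alone would give 3.86 points, so part of the spread between genes lay above counting error.

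**Figure D2:**
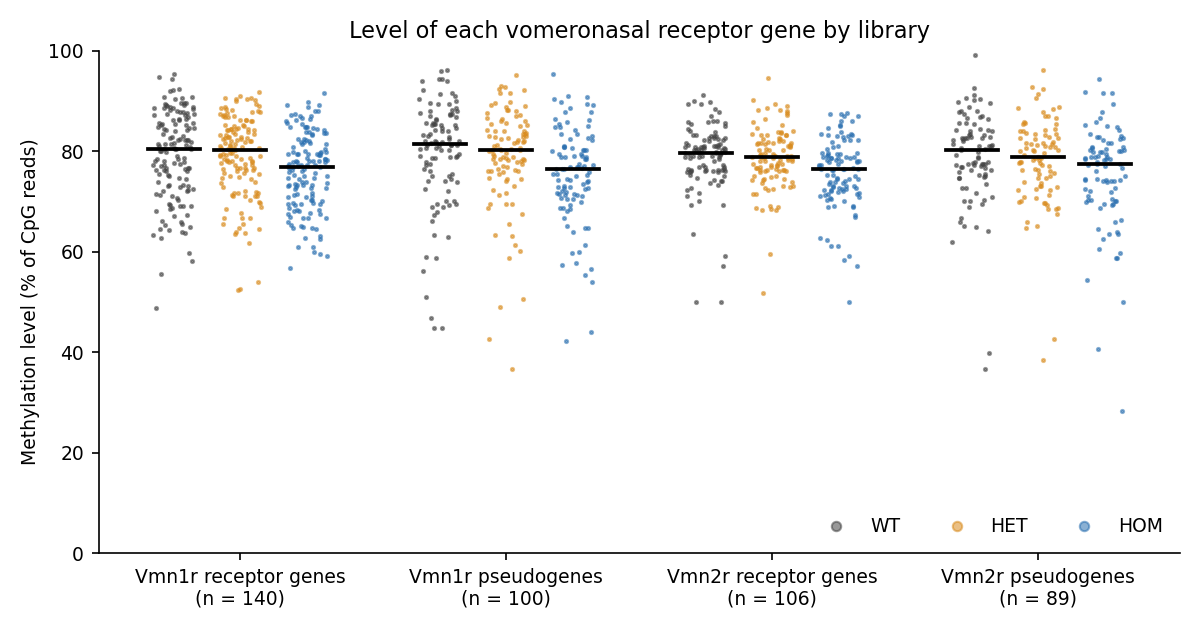
Each point is the methylation level (percent of CpG reads, vertical axis) of 1 vomeronasal receptor gene in WT, HET or HOM, for 140 Vmn1r receptor genes, 100 Vmn1r pseudogenes, 106 Vmn2r receptor genes and 89 Vmn2r pseudogenes, and bars are medians. Most points lie between 60% and 90%, and the HOM median is the lowest in every class.

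Depth was lower in these genes than elsewhere. Pooled over the 435 genes there were 5.49 reads per CpG in WT, 7.80 in HET and 5.31 in HOM, against 9.52, 13.4 and 10.23 over all autosomal CpGs. In WT 35.04% of their CpGs had no read, against 11.99% of autosomal CpGs. Vmn2r genes had 5.10 reads per CpG in WT and 38.6% of CpGs without a read, and Vmn1r genes 8.19 reads per CpG and 10.8%. Of the 188 genes that failed the limits 88 had no CpG read in any library and 9 had fewer than 3 CpGs. These counts overlap in 7 genes, which lie before the first CpG listed on their chromosome. The genes that failed were concentrated in a few places. Of 99 Vmn1r genes in chr7:20101158-24055691 only 16 passed, of 32 Vmn2r genes in chr7:7153726-9223653 only 10, and of 13 Vmn2r genes in chr13:65353153-66873018 only 5. How reads from near-identical copies were assigned is not given in these sources, so levels of recent copies are uncertain, and results hold for the genes that could be read.

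A Vmn1r interval held a median of 12 CpGs and a Vmn2r interval 75, since Vmn2r genes are longer, and the median CpG density was 3.84 per kb against 11.1 per kb over all genes. Among members with at least 100 reads in every library, the highest WT levels of Vmn1r genes were in Vmn1r-ps1 (96.1%), Vmn1r37 (95.4%) and Vmn1r-ps136 (92.1%). In Vmn2r genes they were in Vmn2r-ps112 (99.1%), Vmn2r-ps3 (91.3%) and Vmn2r86 (91.2%). The lowest were Vmn1r-ps135 (44.7%), Vmn1r4 (58.2%) and Vmn1r-ps150 (58.7%), and Vmn2r-ps19 (36.6%), Vmn2r-ps15 (39.8%) and Vmn2r29 (57.2%). In all, 17 genes lay below 60% in WT, 12 genes in HET and 22 genes in HOM, and 10 of the 17 had fewer than 100 reads in some library.

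Several of the low genes held a short unmethylated stretch in an otherwise methylated interval. Such low spots, taken as stretches of 100 bp or more with at least 4 CpGs in which every running group of 3 CpGs lay below 50% in the mean of the libraries, numbered 22 and touched 17 of the 435 genes. That is 3.79 per Mb, against 32.0 per Mb over the autosomes, and 7.63 per 10000 CpGs against 37.8. Both rates count CpGs without a read, which in WT were 35.04% of CpGs in these genes and 11.99% over the autosomes. No such rate was taken for Olfr genes or for genes equally poor in CpGs. With a limit of 30% there were 11. The longest run of CpGs, 85, lay at chr6:56922769-56924609 at the edge of Vmn1r4 and stood at 6.55%, 3.40% and 4.29% in WT, HET and HOM. The Vmn1r4 interval also holds the coding gene Nt5c3, a nucleotidase. The interval of Vmn1r4 as a whole stood at 58.2%, 52.5% and 56.8%, and outside the low spot at 83.8%, 82.4% and 81.5%.

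Low spots were also found in 4 of the other lowest genes. Vmn2r-ps19 stood at 36.6%, 42.7% and 28.3% in WT, HET and HOM, and at 81.2%, 67.8% and 71.4% outside a spot of 51 CpGs at chr4:147442935-147443801. Its interval also reaches the zinc finger gene Zfp982, as that of Vmn2r-ps15 reaches Zfp980 and that of Vmn2r-ps18 reaches Zfp978. Vmn2r-ps15 stood at 39.8%, 38.4% and 40.5%, and at 86.2%, 79.1% and 83.3% outside its spots. Few reads lay outside them, 159, 253 and 138 in WT, HET and HOM in an interval of 705 CpGs. One of its spots was not short, spanning 9323 bp with 21 CpGs counted and 30, 50 and 65 reads. Vmn1r-ps135 stood at 44.7%, 36.7% and 42.2%, and at 75.1%, 73.6% and 70.1% outside. Vmn2r29 stood at 57.2%, 51.7% and 50.05%, and at 69.6%, 70.8% and 60.3% outside a spot at chr7:7278106-7278611, which covers its CpG-rich start window and stood at 7.59%, 8.79% and 10.14%. Over the 17 genes with a low spot the median WT level was 72.7%, and 83.0% outside the spots, a rise that the choice of the spots on their level fixes. Only 6 of the 17 genes below 60% in WT had such a spot.

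In the HOM library the receptor genes were less methylated than in WT, as were genes in general. Pooled over the 435 genes the level was 79.4%, 78.3% and 76.3% in WT, HET and HOM. HOM lay below WT by 3.03 points (95% interval -3.32 to -2.74), and over all autosomal CpGs the difference was -3.70 points. HET minus WT was -1.06 points (-1.32 to -0.80) against -0.50, and HOM minus HET was -1.97 points (-2.25 to -1.70) against -3.20. These intervals, and all others given here, cover counting error only, since CpGs on 1 read are not independent and each genotype has 1 pair of columns.

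Gene by gene the median of HOM minus WT was -3.43 points over the receptor genes and -3.30 over all genes, and the level was lower in HOM in 339 receptor genes (77.9%) against 81.8% of all genes. The median of HET minus WT was -0.36 points against -0.43, and HET was lower in 230 receptor genes (52.9%) against 56.5%. The median of HOM minus HET was -2.88 points against -2.85, and HOM was lower in 320 (73.6%) against 81.1%. HOM held the lowest of the 3 levels in 275 of the 435 receptor genes, against 32039 of the 44534 genes of all kinds, a larger share. The SD of HOM minus WT over genes was 6.71 points, against 4.49 over all genes and 6.81 over Olfr genes. It was 5.62 over genes within the receptor genes' quartiles of WT CpG reads and 5.93 over those within their quartiles of CpG density. Counting reads alone would give the HOM level an SD of 4.14 points in the receptor genes and 4.07 in Olfr genes. For the WT level it would give 3.86 and 3.76. In the sets matched by reads and by density it would give 2.98 and 3.45 for HOM, and 2.77 and 3.21 for WT. Counting error was therefore not equal between the sets. HOM minus WT carries the error of both levels, so none of these values alone is its counting SD. The 3 comparisons share their libraries, so they are given side by side and not against each other.

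Gene spans and their 1 kb flanks were also measured apart. Gene spans stood at 79.6%, 78.8% and 76.7% in WT, HET and HOM, and flanks at 78.4%, 76.0% and 74.5%. HET minus WT was -0.78 points in the spans (-1.07 to -0.50) and -2.40 points in the flanks (-3.05 to -1.75). These intervals cover counting error only, and the difference between spans and flanks was not tested. In Vmn1r genes it was 0.74 points in the spans (-0.16 to 1.65) and -2.08 points in the flanks (-2.90 to -1.26). In Vmn2r genes it was -0.95 points in the spans (-1.26 to -0.65) and -2.99 points in the flanks (-4.05 to -1.92). HOM minus WT was -2.84 points in the spans (-3.16 to -2.53) and -3.91 points in the flanks (-4.63 to -3.19).

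For single genes, reads of 2 libraries were compared at a time by Fisher's exact test (two-sided), adjusted by Benjamini-Hochberg over all 44534 autosomal genes, and called where the levels differed by at least 10 points with an adjusted p below 0.05. This test compares the libraries, not the genotypes. Between HOM and WT 22 receptor genes (5.06%) were lower in HOM, against 4.16% of all genes, and 4 (0.920%) were higher, against 0.397%. Between HET and WT 7 (1.61%) were lower in HET, against 1.08%, and 4 (0.920%) higher, against 0.712%. Between HOM and HET 22 (5.06%) were lower in HOM, against 3.15%, and 2 (0.460%) higher, against 0.393%. Each share of called receptor genes was above that of all genes, which had more CpG reads per gene (WT median 1242 against 122). Among other genes within the receptor genes' quartiles of WT CpG reads, 7.9% were called lower and 0.772% higher in HOM than WT. Within their quartiles of CpG density it was 5.7% and 0.41%. Between HOM and HET these sets had 6.36% and 5.11% lower, and 1.03% and 0.616% higher. Between HET and WT they had 2.45% and 1.87% lower, and 1.34% and 0.924% higher. Here the receptor genes' shares were below both sets, except for genes higher in HOM than WT. No difference between sets was tested. After the median difference of all genes was subtracted, the calls for HOM against WT were 5 lower, against 1.09% of all genes, and 6 higher, against 1.2%. For HOM against HET they were 7 lower, against 1.04%, and 6 higher, against 1%. Reads that span several CpGs count each of them, and when counts were divided by the CpGs within a read length of 150 bp, 54 of the 61 calls ended. The 7 that did not were Vmn2r116 and Vmn1r30 for HOM against WT and, for HOM against HET, Vmn1r-ps18, Vmn1r-ps20, Vmn1r-ps69, Vmn1r194 and Vmn2r31.

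With 5 points in place of 10 the shares were below those of all genes. Between HOM and WT 42 receptor genes (9.66%) were lower, against 22.4%, and 4 (0.920%) higher, against 1.5%. Between HET and WT 13 (2.99%) were lower, against 5.07%, and 6 (1.38%) higher, against 3.76%. Between HOM and HET 35 (8.05%) were lower, against 17.8%, and 4 (0.920%) higher, against 1.37%. Other genes within the receptor genes' quartiles of WT CpG reads were lower in HOM than WT in 15.1% and lower in HOM than HET in 13.6%, and those within their quartiles of CpG density in 13.4% and 11.8%.

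**Figure D3:**
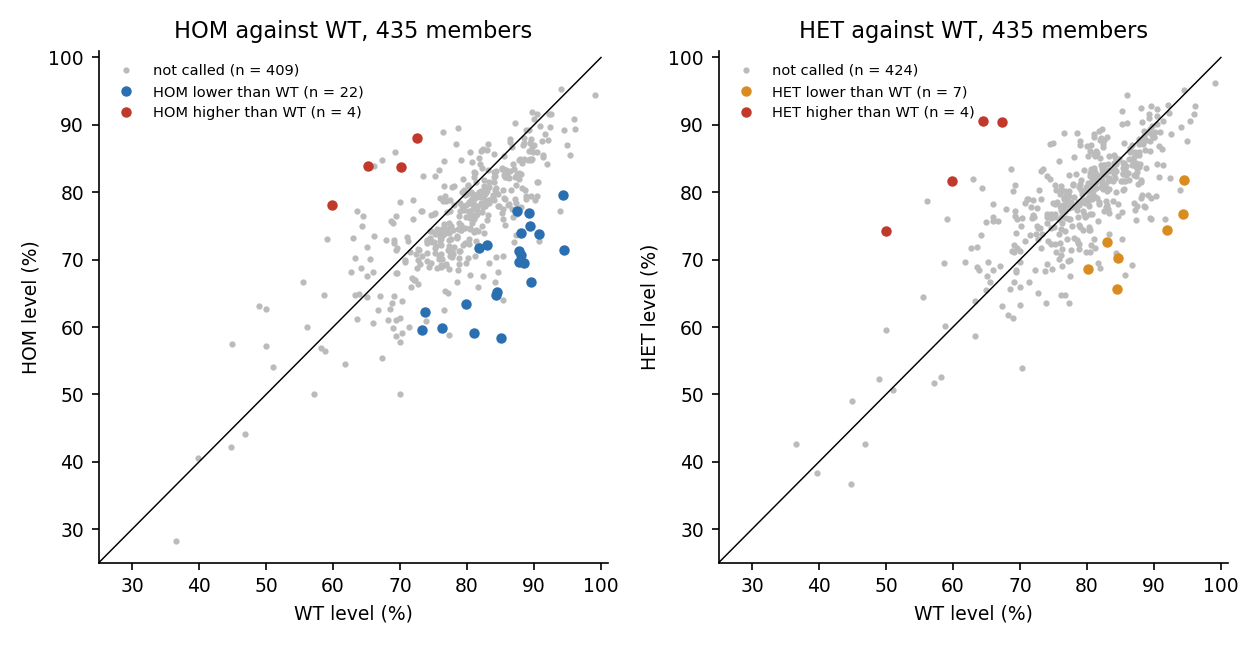
Each point is 1 of the 435 vomeronasal receptor genes, with its WT level on the horizontal axis and its HOM level (left) or HET level (right) on the vertical axis, in percent of CpG reads. The line marks equal levels, and colours mark the 22 genes called lower and 4 called higher in HOM, and the 7 called lower and 4 called higher in HET.

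Among the 22 genes lower in HOM than in WT were 15 receptor genes and 7 pseudogenes in 9 genomic clusters, with differences from -26.7 to -10.0 points (median -16.4) over 5 to 179 CpGs, and 16 were Vmn1r and 6 Vmn2r genes. Vmn2r116, a V2R that binds the male tear peptide ESP1 and promotes female sexual receptivity, lies at chr17:23384803-23401864. Over its 69 CpGs the level was 73.7% in WT (567 reads), 68.4% in HET (629 reads) and 62.3% in HOM (440 reads). HOM minus WT was -11.4 points (95% interval -17.2 to -5.65, adjusted p 0.00048 by Fisher's exact test). The 3 libraries were ordered WT, HET, HOM, and the differences of HET from each of the others were not called. With 5 kb flanks the difference was -8.28 points, under the 10 points of a call, and with counts divided by linked CpGs the adjusted p was 0.033.

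Vmn2r106, a V2R gene at chr17:20267547-20285430 with 57 CpGs, stood at 83.0% in WT (406 reads), 72.6% in HET (566 reads) and 72.2% in HOM (352 reads). HOM minus WT was -10.8 points (-16.8 to -4.91) and HET minus WT -10.4 points (-15.5 to -5.10), both with an adjusted p of 0.0015 by Fisher's exact test. Here HET and HOM stood together below WT. With counts divided by linked CpGs both calls ended, at adjusted p 0.054 for HOM and 0.18 for HET. Both genes were covered at 47 or more of their CpGs in every library.

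Vmn1r89, a V1R that responds to sulfated estrogens, lies at chr7:13219339-13220289 and stood at 81.8% in WT (214 reads), 78.2% in HET (262 reads) and 71.7% in HOM (230 reads). HOM minus WT was -10.0 points (-17.7 to -2.16), with an adjusted p of 0.032 by Fisher's exact test. Vmn1r30, a V1R gene with 46 CpGs, stood at 87.4%, 84.4% and 77.2% with 452 to 763 reads, and its HOM minus WT was -10.1 points (-15.0 to -5.26, adjusted p 0.00023 by Fisher's exact test). Vmn1r30 lies outside the rule by which genes were named and was chosen for its depth after its values were seen. In both genes HOM was lowest. With counts divided by linked CpGs the adjusted p was 0.22 for Vmn1r89, which ended its call, and 0.021 for Vmn1r30.

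Larger differences came with fewer reads. Vmn1r68 (chr7:10527210-10528169, 18 CpGs) stood at 88.6%, 77.9% and 69.5% in WT, HET and HOM with 105 to 172 reads, and HOM minus WT was -19.0 points (-29.6 to -8.10). Vmn1r199 (chr13:22382538-22383641, 8 CpGs) stood at 87.7%, 81.3% and 71.3% with 130 to 203 reads, and HOM minus WT was -16.4 points (-25.3 to -6.89). Both are V1R genes with HET between WT and HOM, and HET was called against neither. With counts divided by linked CpGs both calls ended, at adjusted p 0.12 and 0.080. The pseudogene Vmn1r-ps49 stood at 88.1%, 79.1% and 73.9%, with a HOM minus WT of -14.1 points (-23.9 to -3.89).

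The pseudogene Vmn1r-ps18 (chr6:58206047-58206997, 26 CpGs) stood at 88.1% in WT (176 reads), 92.4% in HET (251 reads) and 70.7% in HOM (150 reads). HOM minus WT was -17.4 points (-26.1 to -8.66) and HOM minus HET -21.8 points (-29.9 to -14.0, adjusted p 2.0e-07 by Fisher's exact test). HOM alone was low in this gene. With counts divided by linked CpGs the adjusted p was 0.31 against WT, which ended that call, and 0.047 against HET. The pseudogene Vmn1r-ps36 (chr6:91430083-91430484, 33 CpGs) stood at 84.5%, 65.6% and 65.2%, with HOM minus WT at -19.3 points (-28.7 to -9.77) and HET minus WT at -19.0 points (-26.6 to -10.7). It overlaps the interval of Vmn1r-ps35 (89.4%, 76.2% and 75%), so both report some of the same CpGs. Without the 1 kb flanks the HOM minus WT of Vmn1r-ps36 was 4.61 points, so its difference lay in the flank, and both of its calls ended with counts divided by linked CpGs.

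The 4 genes higher in HOM than in WT were all receptor genes with 75 to 174 reads in each of these 2 libraries. Vmn1r67 stood at 59.8%, 81.7% and 78.0% in WT, HET and HOM, and was called higher in HET as well (21.9 points, 10.9 to 32.3). Vmn2r71 stood at 70.1%, 75% and 83.7%, a HOM minus WT of 13.6 points (4.66 to 22.3). Vmn1r28 (65.3%, 69.6% and 83.9%) and Vmn1r81 (72.5%, 75% and 88.0%) lie outside the naming rule and complete the 4. Dividing counts by linked CpGs ended all 4 of these calls, and all 11 between HET and WT that follow.

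In HET the genes called lower than WT were Vmn1r12, Vmn1r-ps31, Vmn1r-ps36, Vmn1r202, Vmn1r214, Vmn2r74 and Vmn2r106. Vmn1r214 stood at 94.4%, 76.7% and 79.5% in WT, HET and HOM, with HET minus WT at -17.7 points (-27.3 to -6.98). Vmn2r74 stood at 80.2%, 68.6% and 78.6%, with HET minus WT at -11.6 points (-18.7 to -4.29), so HET alone was low there. The genes called higher in HET were Vmn1r67, Vmn1r90, Vmn1r176 and Vmn2r44. Vmn1r176 stood at 64.5%, 90.6% and 76.5% with 76 to 128 reads, a HET minus WT of 26.2 points (14.5 to 38.0). Vmn1r90 (67.3%, 90.5% and 84.8%) and Vmn2r44 (50%, 74.2% and 62.7%) had fewer than 100 reads in every library.

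Between HOM and HET the 2 genes higher in HOM were Vmn1r28 and the pseudogene Vmn2r-ps62 (78.7%, 72.5% and 89.5% in WT, HET and HOM). Vmn2r88, a V2R that detects hemoglobin, was among the 22 lower. It stood at 86.0%, 94.5% and 83.1% in WT, HET and HOM, with HOM minus HET at -11.4 points (-19.3 to -4.74, adjusted p 0.0032 by Fisher's exact test). Its HET level was the highest of the 3, and with counts divided by linked CpGs its call ended, at adjusted p 0.068. Vmn1r194, a V1R gene, stood at 73.2%, 79.0% and 59.6%, with HOM minus HET at -19.5 points (-29.0 to -9.76). Vmn2r31, outside the naming rule, had the lowest difference of all, -29.4 points (-44.1 to -14.7), from 81.0%, 88.6% and 59.2% with only 49 to 105 reads.

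**Figure D4:**
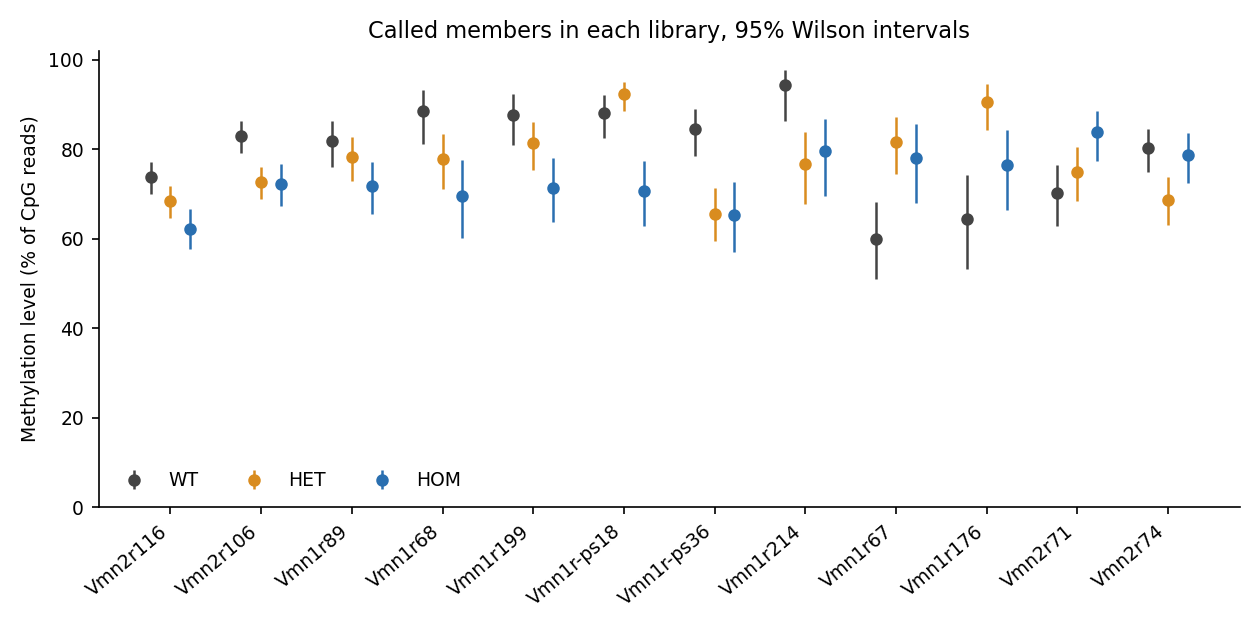
Methylation level (percent of CpG reads, vertical axis) of 12 called vomeronasal receptor genes in WT, HET and HOM, with 95% Wilson intervals for counting error. Vmn2r116, Vmn1r68 and Vmn1r199 have HET between WT and HOM, Vmn2r106 and Vmn1r-ps36 are low in both mutants, and Vmn1r67 and Vmn1r176 are lowest in WT.

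No called gene held a CpG that looked like a sequence variant, at or below 10% in 1 library and at or above 70% in another with at least 5 reads in each. Such CpGs numbered 18 in the intervals of all 435 genes, 13.3 per 10000 CpGs with enough reads, against 10.21 over the autosomes. A smaller count of differing CpGs, or copies of a gene that differ between strains, was not tested.

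The 10 better-studied receptor genes of the list all passed, with WT levels from 69.1% to 89.9%. HOM was below WT in 9 of them, against 81.8% of all genes. Called lower in HOM were 2, Vmn2r116 and Vmn1r89, against 4.16% of all genes, and this small list was not tested against all genes. Vmn2r1 and Vmn2r2, which belong to the broadly expressed V2R group found in neurons beside another V2R, stood at 81.1%, 82.1% and 78.1% and at 82.7%, 82.6% and 78.1% in WT, HET and HOM. The span of Vmn2r1 contains that of Vmn2r2, so they share CpGs. Vmn2r26, a receptor for peptide ligands of MHC class I, stood at 89.9%, 88.3% and 86.0%. Vmn2r53 stood at 80.8%, 81.4% and 79.0%, and Vmn2r81 at 82.2%, 81.8% and 77.1%. Vmn1r51, whose receptor detects the urinary ketone heptanone, stood at 82.3%, 82.8% and 75%. Vmn1r49 stood at 69.1%, 66.7% and 72.4%, the only one of the 10 with HOM above WT, and Vmn1r85, near Vmn1r89, at 69.3%, 77.2% and 68.1%. HOM minus WT stayed under 10 points in the 8 genes not called.

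By position the genes fell into 53 clusters, runs with at most 500 kb between neighbours, of which 24 held 3 or more measured genes and 407 of the 435. WT cluster levels ran from 64.1% in chr7:7153726-9223653 to 89.3% in chr10:130385800-130497379, with a median of 78.2%. In 16 of the 24 the genes were less methylated than the space between them. Pooled over the 24, the genes stood at 79.2% in WT, the space between them at 76.8% and the 1 Mb on each side at 70.5%. All autosomal CpGs stood at 76.0% in WT, so the space between the genes was near that level and the sides below it. Of the CpGs between the genes 48.9% had no WT read.

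HOM was below WT in 23 of the 24 clusters, with the interval wholly below 0 in 21 and wholly above in none. The median was -3.12 points, and -3.41 points in the space between the genes. The lowest was -11.8 points (-17.1 to -6.41) in chr4:147126167-147521814, which holds 3 Vmn2r pseudogenes with 67.2%, 67.3% and 55.5% in WT, HET and HOM. Each of the 3 differed by less, Vmn2r-ps19 by -8.35 points, Vmn2r-ps18 by -6.33 and Vmn2r-ps20 by -2.66, and none was called. The pooled level weighs genes by their reads, and the highly methylated Vmn2r-ps20 had 377 reads in WT and 206 in HOM, while the low Vmn2r-ps19 had 213 and 237. The highest, 0.30 points (-1.47 to 2.05), was in chr4:145701675-146605510, also with 3 Vmn2r pseudogenes. Between the genes the difference was -3.12 points in the former and -4.58 in the latter. HET minus WT was below 0 in 13 clusters, wholly in 6, and wholly above 0 in 1. It ran from -3.33 points (-4.96 to -1.68) in chr17:22547941-23479597, the cluster of Vmn2r116, to 2.18 points (0.27 to 4.11) in chr7:5146490-6011010.

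The largest cluster by measured genes, chr13:22057168-23269501, held 61 Vmn1r genes at 77.2%, 75.6% and 73.4% in WT, HET and HOM, with 5 genes called lower in HOM than WT. The cluster chr17:17703941-21323764, with 22 Vmn1r and 35 Vmn2r genes, stood at 77.7%, 76.9% and 74.2%. The cluster chr6:56923914-58504695 held 39 Vmn1r genes at 76.3%, 73.5% and 72.6%, with 5 called lower and 1 higher in HOM than WT. Over all genes 4.16% were called lower and 0.397% higher in HOM than WT. Among other genes within the receptor genes' quartiles of WT CpG reads it was 7.9% and 0.772%. No cluster was tested against these shares. The small cluster chr10:130385800-130497379, with 4 Vmn2r genes at 89.3%, 88.5% and 87.2%, was the one with the highest level in each library, while the space between its genes was at 65.6% in WT.

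**Figure D5:**
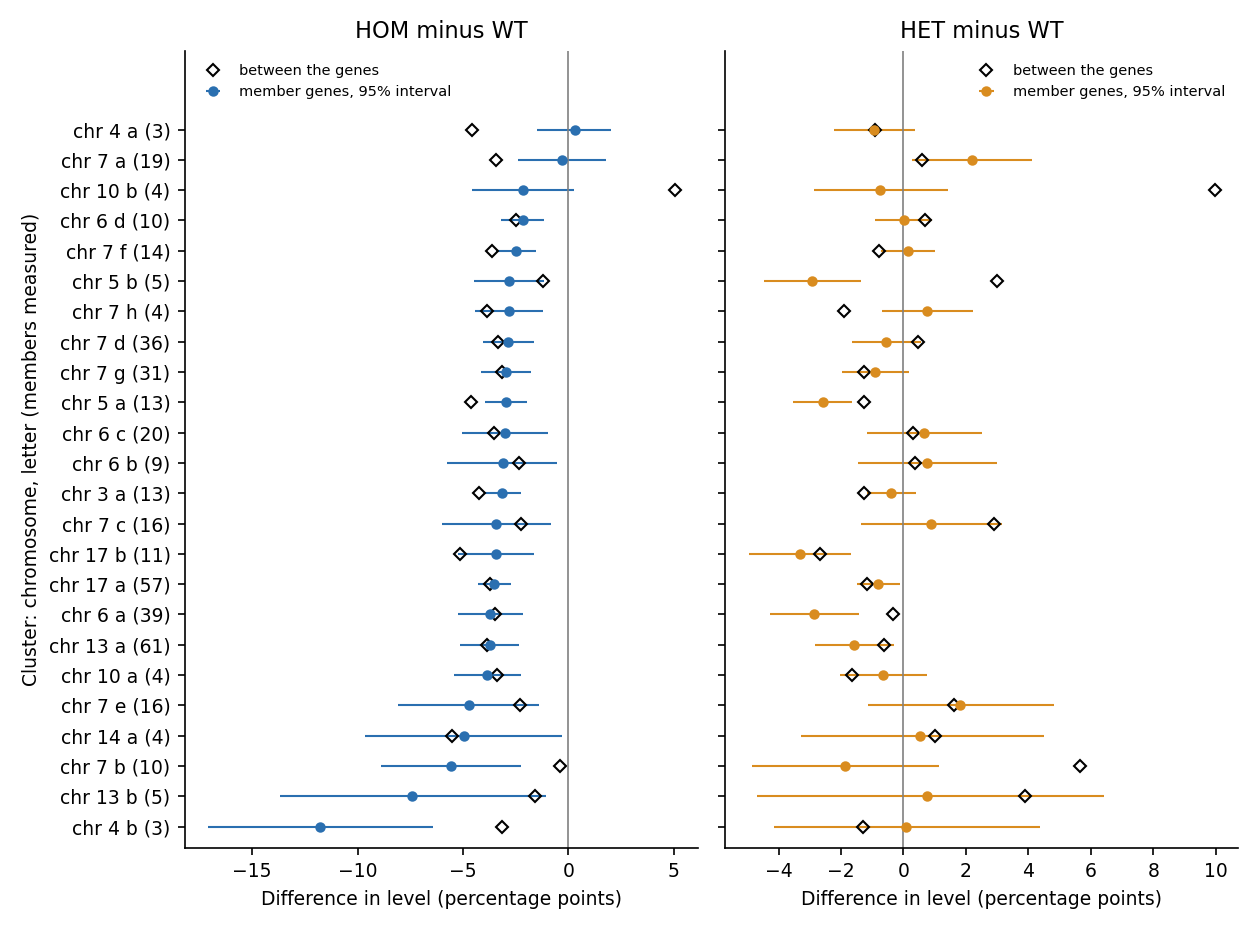
Difference in methylation level (percentage points, horizontal axis) of HOM minus WT (left) and HET minus WT (right) in the 24 clusters with 3 or more measured genes, named by chromosome and a letter with the number of genes in brackets. Filled points with 95% counting intervals are the genes and open diamonds the space between them. On the left 23 of 24 filled points lie below 0, and on the right 13.

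Genes that act with the receptors were measured in the same way. All 28 genes of a list of vomeronasal signalling, neuronal and receptor partner genes passed, with medians of 77.8%, 78.8% and 76.9% in WT, HET and HOM. Between HOM and WT 0 were called lower, against 4.16% of all genes, and 1 higher, against 0.397%. Between HET and WT 0 were lower, against 1.08%, and 2 higher, against 0.712%, and between HOM and HET 1 was lower, against 3.15%, and 0 higher, against 0.393%. Trpc2, the cation channel that carries the vomeronasal signal, stood at 90.4%, 89.1% and 86.9%. Omp, the olfactory marker protein of mature sensory neurons, stood at 92.9%, 88.9% and 88.0%. The formyl peptide receptor gene Fpr-rs3, which is expressed in vomeronasal neurons and lies at chr17:20623846-20624877, stood at 74.3%, 87.7% and 88.6%, and was called higher in both mutants. Its relative Fpr-rs7, with 39 to 69 reads, stood at 84.6%, 98.6% and 76.9% and gave the other calls.

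Of 37 ligand genes of the Mup and Esp families 22 passed, with medians of 78.7%, 78.7% and 75.1% in WT, HET and HOM, and 2 of the 22 were called lower in HOM than WT, against 4.16% of all genes, with none higher. Esp1, which encodes the ligand of the Vmn2r116 receptor, stood at 74.9% in WT (367 reads), 70.0% in HET (416 reads) and 64.8% in HOM (344 reads), a HOM minus WT of -10.1 points (-16.8 to -3.36). Esp34 stood at 71.3%, 63.9% and 55.8%. As in Vmn2r116, HET lay between WT and HOM in both. No ligand gene was called in the other comparisons.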

How the data were processed

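Whole-genome bisulfite sequencing measured CpG methylation in mouse B cells of 3 genotypes. Per the labels' protocols, sequencing used 200 ng of DNA, fragments near 800 bp and paired reads of 150 bp. The authors deposited, for each CpG and genotype, counts of methylated and of covering reads as raw counts. The submitters' processing notes name BWA 0.7.13, Picard 1.91 and 2.3.0, Trim Galore 0.2.8, Bowtie2, MethylDackel and Bismark, and the sources used here do not say which of them made these columns. The files' coordinates are those of GRCm38, and gene spans and start windows came from RefSeq (GRCm38.p6).

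Reads were summed over the CpGs of each gene with 1 kb flanks. Genes needed 3 CpGs and 30 reads in every library. Differences have Newcombe intervals and levels Wilson intervals, both at 95%. Two-sided Fisher's exact tests on reads were adjusted by Benjamini-Hochberg over 44534 genes, and the code was tested on simulated data. Python 3.11.15, NumPy 2.4.6, pandas 2.3.3, SciPy 1.17.1, Numba 0.67.0 and Matplotlib 3.10.9 were used. Genes and lists were chosen with earlier results of these data known. Named genes were, by family and among those with at least 100 reads in every library, the 3 lowest and 3 highest in WT, the 5 and 5 extreme for HOM minus WT, the 3 and 3 extreme for the other comparisons, every called gene where a comparison had at most 20, 10 genes of known function, and up to 6 pathway or ligand genes. The others named were chosen after their values were seen. Alternatives changed the depth limits, flanks, averaging, centring, linked CpGs, variant-like CpGs, CpGs of high depth, size of a call, gene class, cluster distance and low-spot limit. Blood samples were not analysed here.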

Additional observations from a re-analysis of the deposited data

How the results depend on the processing

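The deposited table has 1 pair of columns per genotype, so leaving out a replicate was not run. No paired analysis was possible because the columns carry no replicate number. Main counts of called receptor genes were 26 for HOM against WT, 24 for HOM against HET and 11 for HET against WT. With at least 10 CpGs and 100 reads they were 11, 7 and 3, with no flank 15, 14 and 7, with counts divided by linked CpGs (CpGs within a read length of 150 bp) 2, 5 and 0, and with 5 points for a call 46, 39 and 19. After subtracting the median difference of all genes, HOM against WT had 11 calls (5 lower, 6 higher, in place of 22 and 4) and HOM against HET 13 (7 lower, 6 higher, in place of 22 and 2). HOM against WT had 15 calls with CpGs of at least 5 reads in every library, and HOM against HET 13 with coding genes only. Shares of all genes are given here only for the main rule, for 5 points and after subtracting the median. Whether calls under the other settings fell more in receptor genes than in all genes was not tested.

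The median difference of HET minus WT was -0.70 points with 10 CpGs and 100 reads, and turned to 0.0778 after the median of all genes was subtracted. Subtracting it left -0.14 points for HOM minus WT and -0.0223 for HOM minus HET. The median of HOM minus WT was -3.13 with 10 CpGs and 100 reads and -3.12 with coding genes only, that of HOM minus HET -2.31 with no flank, and the cluster median of HOM minus HET -3.10 with neighbours within 200 kb. A low-spot limit of 30% gave 11 spots. Without the CpG-rich Vmn2r29 window, chosen after seeing the data, Vmn2r start windows were at 76.9%, 78.5% and 78.2% in WT, HET and HOM, and all vomeronasal receptor windows at 77.4%, 77.1% and 75.3%, in place of 72.2%, 65.5% and 69.5%.

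Single genes that changed direction were Vmn1r-ps36 for HOM against WT with no flank (4.61 points), and, for HOM against HET with 5 kb flanks, Vmn1r28 (-1.64) and Vmn2r-ps62 (-0.95). Of 61 gene comparisons called, 2 kept their call under every alternative that gave a value, Vmn1r-ps18 and Vmn2r31 for HOM against HET. Vmn2r31 had too few reads for the limits of 50 and 100 reads, so those alternatives gave it no value and its call was not checked at them. With 5 kb flanks Vmn2r116 was at -8.28 points for HOM against WT. Dividing by linked CpGs ended 54 of the 61 calls. The cause of the shifts was not tested. At 30 reads a gene can be read only to several points, so small differences in single genes were not detectable.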
